A study of Mus musculus with 36 samples.

Results

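UDP-glucuronosyltransferases (UGTs) were followed here through 10 genes of the mouse Ugt1a and Ugt2b clusters: Ugt1a2, Ugt1a6a, Ugt1a7c, Ugt1a8, Ugt1a9, Ugt2b34, Ugt2b35, Ugt2b36, Ugt2b37 and Ugt2b38. They are 10 of the 22 genes with a Ugt symbol, and 10 of the 53379 genes, that both count tables list. The genes were matched by symbol, but the list was drawn up from measured levels in kidney tumors, control kidneys, non-transformed kidneys, retro-orbital tumors and brain tumors. The differences of the members between kidney tumors and each of those other groups are therefore given as descriptions, without p-values. How many of them passed the threshold in the main fits is stated beside the share of all genes that did.

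The study sequenced RNA from formalin-fixed, paraffin-embedded tissue of mice that carry a Cre-activated ASPSCR1-TFE3 allele, a fusion of the transcription factor TFE3 that drives translocation renal cell carcinoma. Total RNA libraries were made with a strand-specific kit and without removal of ribosomal RNA. The 36 libraries held 80205573 to 121415057 counts each, and libraries of the same tissue and animal were added together, which left 28 samples. Levels are in CPM, the counts of a gene scaled to a common library total, after TMM scaling, the trimmed mean scaling of edgeR, over all 28 samples.

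Sglt2-Cre; ASPSCR1-TFE3 LSL/+ mice gave 4 groups from 6 animals: kidney tumors (11 libraries of 6 mice), non-transformed kidney (4 mice), retro-orbital tumors (4 mice) and brain tumors (3 mice). Sglt2 is a proximal tubule glucose transporter gene, so that its promoter directs Cre to that segment, and the labels give no age. Sglt2-Cre control kidneys (6 libraries of 3 mice) carry the same Cre without the fusion allele. Pax8-Cre; ASPSCR1-TFE3 LSL/+ fetuses gave dysmorphic kidneys (5 fetuses), set against 3 control fetuses labelled Pax8-Cre, which the series description gives as either Pax8-Cre or ASPSCR1-TFE3 LSL/+ and matched in age. Pax8 is active across the renal epithelium. Tumors and non-transformed kidneys of the same number come from the same mouse, so these groups are not independent of each other.

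Transcripts of the Y chromosome marked 2 of the 6 tumor-bearing mice (mice 1 and 5) as male, all 3 control mice as female, and 1 control and 3 dysmorphic fetuses as male. The labels of the tissues were checked against marker genes. The summed level of 10 proximal tubule markers was 13620 to 14040 CPM in control kidneys, 12780 to 16010 in non-transformed kidneys, 665 to 10440 in kidney tumors, and among tumors of other sites 95.7 to 1196 (retro-orbital) and 286 to 754 (brain). None of these markers was at 0 throughout a group. The summed level of 4 genes known to rise with TFE3 fusions (Gpnmb, Ctsk, Pmel and Mlana) was 2808 to 7252 CPM in the 3 tumor groups, 116 to 475 in non-transformed kidneys, most of it Gpnmb, and 6.46 to 7.27 in control kidneys. In bulk tissue of this kind, fewer cells of a type and less RNA per cell cannot be told apart.

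UGTs are membrane enzymes of the endoplasmic reticulum that transfer glucuronic acid from UDP-glucuronic acid to drugs, bilirubin, steroids, bile acids and fatty acids, which makes them soluble enough for export into bile or urine. The Ugt1a enzymes are encoded by a single locus in which each enzyme has its own first exon and promoter, and all share the remaining exons. The Ugt2b enzymes are separate genes in a tandem cluster. Liver is the richest source of UGTs, and kidney, above all the proximal tubule, is another, where their levels are known to differ between the sexes in mice.

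In GENCODE vM21 coordinates (GRCm38, the build of the submitters' processing), the Ugt1a members lie on the + strand of chromosome 1: Ugt1a9 (ENSMUSG00000090175.1) at 88070800 to 88218997, Ugt1a8 (ENSMUSG00000089675.1) at 88087813 to 88219004, Ugt1a7c (ENSMUSG00000090124.7) at 88095062 to 88220002, Ugt1a6a (ENSMUSG00000054545.17) at 88134809 to 88218997 and Ugt1a2 (ENSMUSG00000090171.1) at 88200601 to 88218997. The Ugt2b members lie on chromosome 5, with Ugt2b35 (ENSMUSG00000035811.10) on the + strand at 87000860 to 87013275. The other 4 are on the - strand, namely Ugt2b34 (ENSMUSG00000029260.15) at 86889767 to 86906937, Ugt2b36 (ENSMUSG00000070704.10) at 87065927 to 87092555, Ugt2b37 (ENSMUSG00000057425.3) at 87240493 to 87254804 and Ugt2b38 (ENSMUSG00000061906.5) at 87409942 to 87424203.

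Shared sequence limits what a count of these genes can mean. The 9 Ugt1a genes share their exons from position 88215044 on, where 735 coding bases are 100% identical, so that Ugt1a2, Ugt1a8 and Ugt1a9 keep only 900, 909 and 879 exon bases of their own. Of the 50-base windows of 1 coding transcript per gene, the share also found in transcripts of other genes was 100% for Ugt1a6a, 63.7% for Ugt1a2, 37.4% for Ugt2b38, 18.3% for Ugt2b37, 2.1% for Ugt2b34, 0.7% for Ugt2b35 and 0.3% for Ugt2b36. With 100-base windows it was 62.9% for Ugt1a2, 24.2% for Ugt2b38 and 1.1% for Ugt2b37, so the Ugt2b shares depend on the window. The coding sequences of Ugt2b37 and Ugt2b38 are 94.1% identical, those of Ugt1a7c and Ugt1a8 91.5%, and those of Ugt2b35 and Ugt2b36 88.3%. How reads of shared exons were assigned is not given in the sources used here, and counts of Ugt1a genes and of the Ugt2b37 and Ugt2b38 pair are uncertain to that extent.

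**Figure D1:**
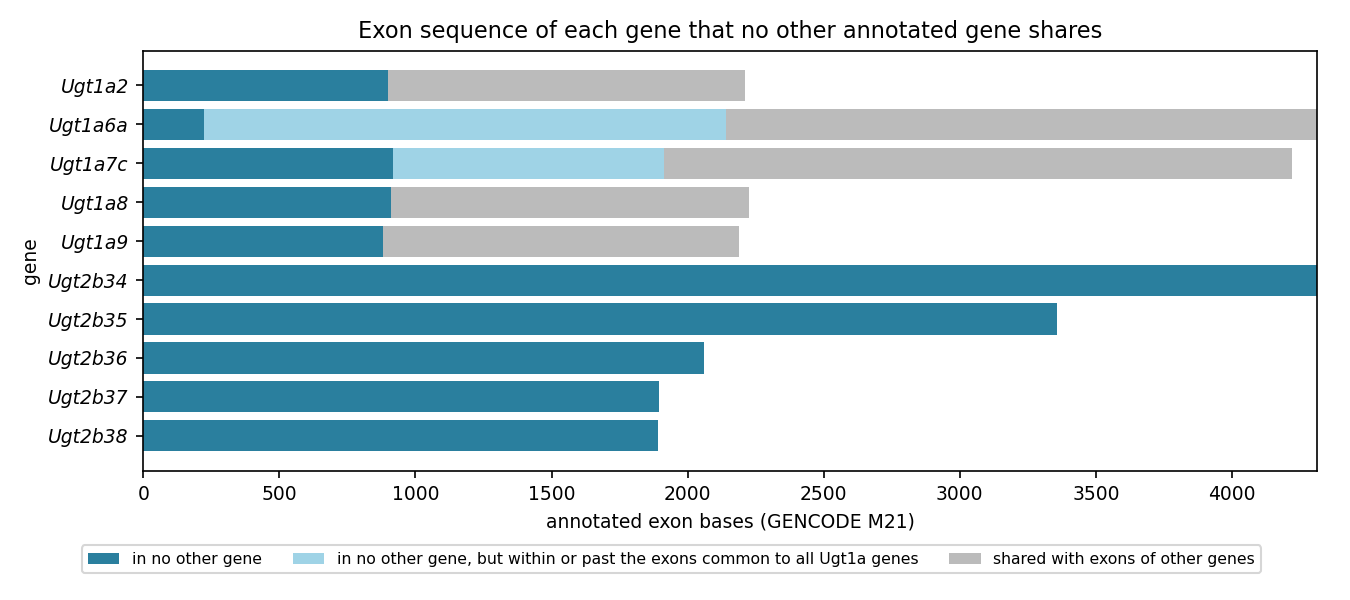
Exon bases of each of the 10 members (bars, in bases), split into those in no other gene, those in no other gene but within or past the exons common to the Ugt1a genes (light blue), and those shared with other annotated genes (grey). The Ugt1a genes share a large part of their exons, and the Ugt2b genes share no annotated exon.

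The promoters of a close pair of Ugt2b genes that were both highest in male non-transformed kidneys and of a pair of which 1 was high in kidney tumors are shown, namely Ugt2b37 with Ugt2b38 and Ugt2b35 with Ugt2b36. Each is the 250 bases before the RefSeq start site (GRCm38.p6), read 5′ to 3′ on the strand of the gene: Ugt2b35 chr5:87000610-87000859 (+), Ugt2b36 chr5:87092556-87092805 (-), Ugt2b37 chr5:87254789-87255038 (-) and Ugt2b38 chr5:87424204-87424453 (-). Capitals mark the longest run shared within the pairs Ugt2b35 with Ugt2b36 and Ugt2b37 with Ugt2b38.
Ugt2b35: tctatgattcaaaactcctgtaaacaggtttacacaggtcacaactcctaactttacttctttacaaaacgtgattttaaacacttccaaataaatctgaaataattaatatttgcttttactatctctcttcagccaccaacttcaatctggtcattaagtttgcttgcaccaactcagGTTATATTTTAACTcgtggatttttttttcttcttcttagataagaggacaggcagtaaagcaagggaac
Ugt2b36: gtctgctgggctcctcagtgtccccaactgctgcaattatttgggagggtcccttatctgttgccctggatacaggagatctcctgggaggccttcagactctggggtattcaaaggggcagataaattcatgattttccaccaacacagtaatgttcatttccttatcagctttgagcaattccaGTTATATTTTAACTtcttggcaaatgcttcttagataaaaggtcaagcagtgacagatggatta
Ugt2b37: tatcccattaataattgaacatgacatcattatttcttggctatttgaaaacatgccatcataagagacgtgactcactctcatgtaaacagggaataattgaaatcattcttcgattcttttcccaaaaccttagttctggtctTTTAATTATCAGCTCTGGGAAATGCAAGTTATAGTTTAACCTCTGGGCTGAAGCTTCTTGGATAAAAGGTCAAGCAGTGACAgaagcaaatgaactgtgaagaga
Ugt2b38: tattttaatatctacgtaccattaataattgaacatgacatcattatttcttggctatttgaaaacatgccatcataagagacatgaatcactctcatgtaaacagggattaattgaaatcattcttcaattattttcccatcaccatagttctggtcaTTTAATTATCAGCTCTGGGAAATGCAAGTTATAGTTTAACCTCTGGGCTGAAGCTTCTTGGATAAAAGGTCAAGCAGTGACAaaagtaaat

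The promoters of Ugt2b37 and Ugt2b38 were 84.8% identical and shared a run of 82 bases, which begins 105 bases before the start of Ugt2b37 and 91 bases before that of Ugt2b38. That run was found in 2 of 32851 mouse promoters, these 2, and Ugt2b37 shared a run of 68 bases, 85 bases before its start, with Ugt2b5, which is no member. Ugt2b35 and Ugt2b36 were 47.6% identical over this stretch, and their longest common run was 14 bases, at 70 and 64 bases before the start, also in 2 of 32851. On either strand, the E-box CACGTG of MiT/TFE factors (6.02% of all promoters), the M-box TCATGTG (3.25%), the antioxidant response core TGACNNNGC (10.2%) and TATAAA (12.4%) were in none of the 10. The xenobiotic response core GCGTG was in that of Ugt1a8 alone, 70 bases before the start, against 28.2% of all promoters.

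To compare genes, levels were divided by the kilobases of exon found in that gene alone. For Ugt1a7c, 917 of those bases lie before the shared exons and 998 from their start on, and for Ugt1a6a 222 and 1920. Reads of other Ugt1a transcripts in the latter were not tested, so the place of these genes in the order is uncertain. Per kilobase, Ugt1a2 had the highest mean of the members in control kidneys, and Ugt1a9 and Ugt1a7c had the highest means in kidney tumors. On that scale Ugt1a2 stood at 895 ± 242 CPM per kb (SD, n = 3) in control kidneys, followed by Ugt1a7c (145 ± 62.1) and Ugt2b38 (85.8 ± 21.2), with Ugt2b35 at 0.0214 ± 0.0131. In kidney tumors (n = 6), Ugt1a9 was at 336 ± 321.9 CPM per kb, Ugt1a7c at 266 ± 73.1, Ugt1a2 at 157 ± 213, Ugt2b35 at 113 ± 98.5 and Ugt2b34 at 101 ± 70.9. The spread between mice was close to or above the mean for Ugt1a9, Ugt1a2 and Ugt2b35, so that the order of these levels is uncertain. Divided by all annotated exon bases instead, the tumor means were 135 for Ugt1a9, 120.8 for Ugt1a7c, 113 for Ugt2b35, 101 for Ugt2b34 and 63.7 for Ugt1a2, and Ugt1a2 in control kidneys was at 364. Ugt1a6a (0.874 ± 0.516) and Ugt2b36 (0.202 ± 0.163) were the lowest of the 10 in kidney tumors.

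**Figure D2:**
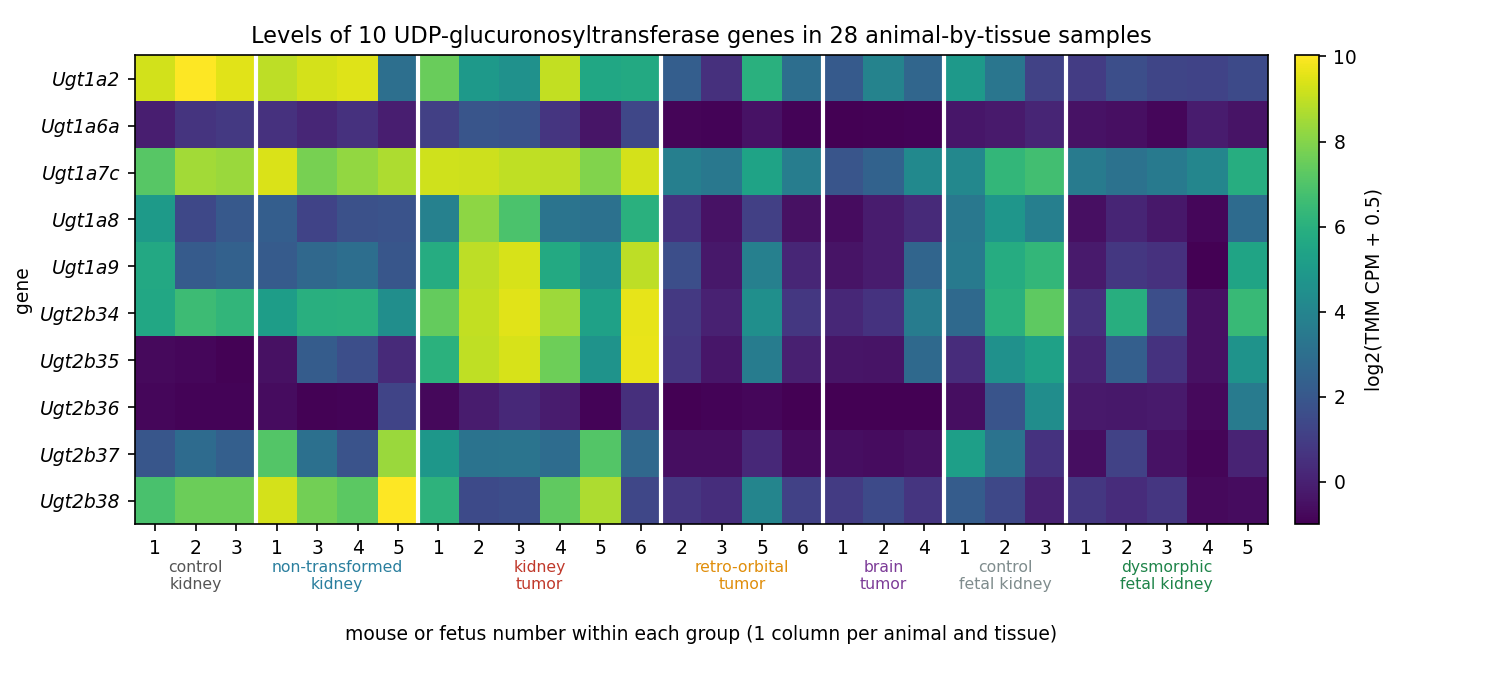
Level of each member (rows) in each of the 28 samples (columns, by group), as log2(CPM + 0.5). Ugt2b35, Ugt2b34, Ugt1a8 and Ugt1a9 are highest in kidney tumors, Ugt1a2 in control and non-transformed kidneys, and all but a few samples are low in retro-orbital and brain tumors.

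Ugt2b35, an isoform of the Ugt2b cluster, had almost no reads in control kidney and was well detected in every kidney tumor. Its level was 0.115, 0.0740 and 0.0267 CPM in the 3 control kidneys, from 24, 16 and 6 counts, and 0.206, 4.06, 2.66 and 0.735 CPM in the non-transformed kidneys of mice 1, 3, 4 and 5. In kidney tumors it was lowest at 25.1 CPM (mouse 5), had a median of 347 and was highest at 818 (mouse 6). Every tumor lay above every control and non-transformed kidney. The log2 fold change between kidney tumors and control kidneys was 12.38, and that between kidney tumors and non-transformed kidneys 7.59. Ugt2b36, its closest relative among the members by coding sequence, was at 0.0402 to 0.903 CPM in the same tumors and at 0.0444 to 0.0718 in the control kidneys, with 5 of 6 tumors above all controls and a log2 fold change of 2.96.

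Ugt2b34, a more distant Ugt2b gene (70.9% to 71.6% coding identity with the other members of its cluster), was at 48.0, 94.1 and 75.3 CPM in control kidneys and at 34.6, 62.0, 64.4 and 21.6 in non-transformed kidneys. Its kidney tumor levels ran from 39.2 CPM (mouse 5) over a median of 429 to 790 (mouse 6). Thus 5 of the 6 tumors were above all kidneys without tumor, and that of mouse 5 was among them. The log2 fold change was 2.61 against control kidneys and 3.21 against non-transformed kidneys.

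Ugt1a9 and Ugt1a8, both enzymes of the Ugt1a locus with wide substrate ranges, followed the same mice. Ugt1a9 was at 49.2, 3.99 and 4.80 CPM in control kidneys and at 4.04, 6.10, 7.36 and 3.41 in non-transformed kidneys, against 23.2 to 661 (median 272) in kidney tumors. Ugt1a8 was at 32.2, 2.09 and 3.72 CPM in control kidneys, 4.37, 1.80, 2.87 and 2.99 in non-transformed kidneys and 8.09 to 289 (median 38.5) in kidney tumors. All 6 tumors exceeded all 4 non-transformed kidneys for both genes, while control mouse 1 lay within the range of the tumors. The log2 fold changes against control kidneys were 3.96 for Ugt1a9 and 2.75 for Ugt1a8, and against non-transformed kidneys 5.78 and 4.77. The tumors of mice 2, 3 and 6 held the highest levels of both genes and of Ugt2b34 and Ugt2b35.

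**Figure D3:**
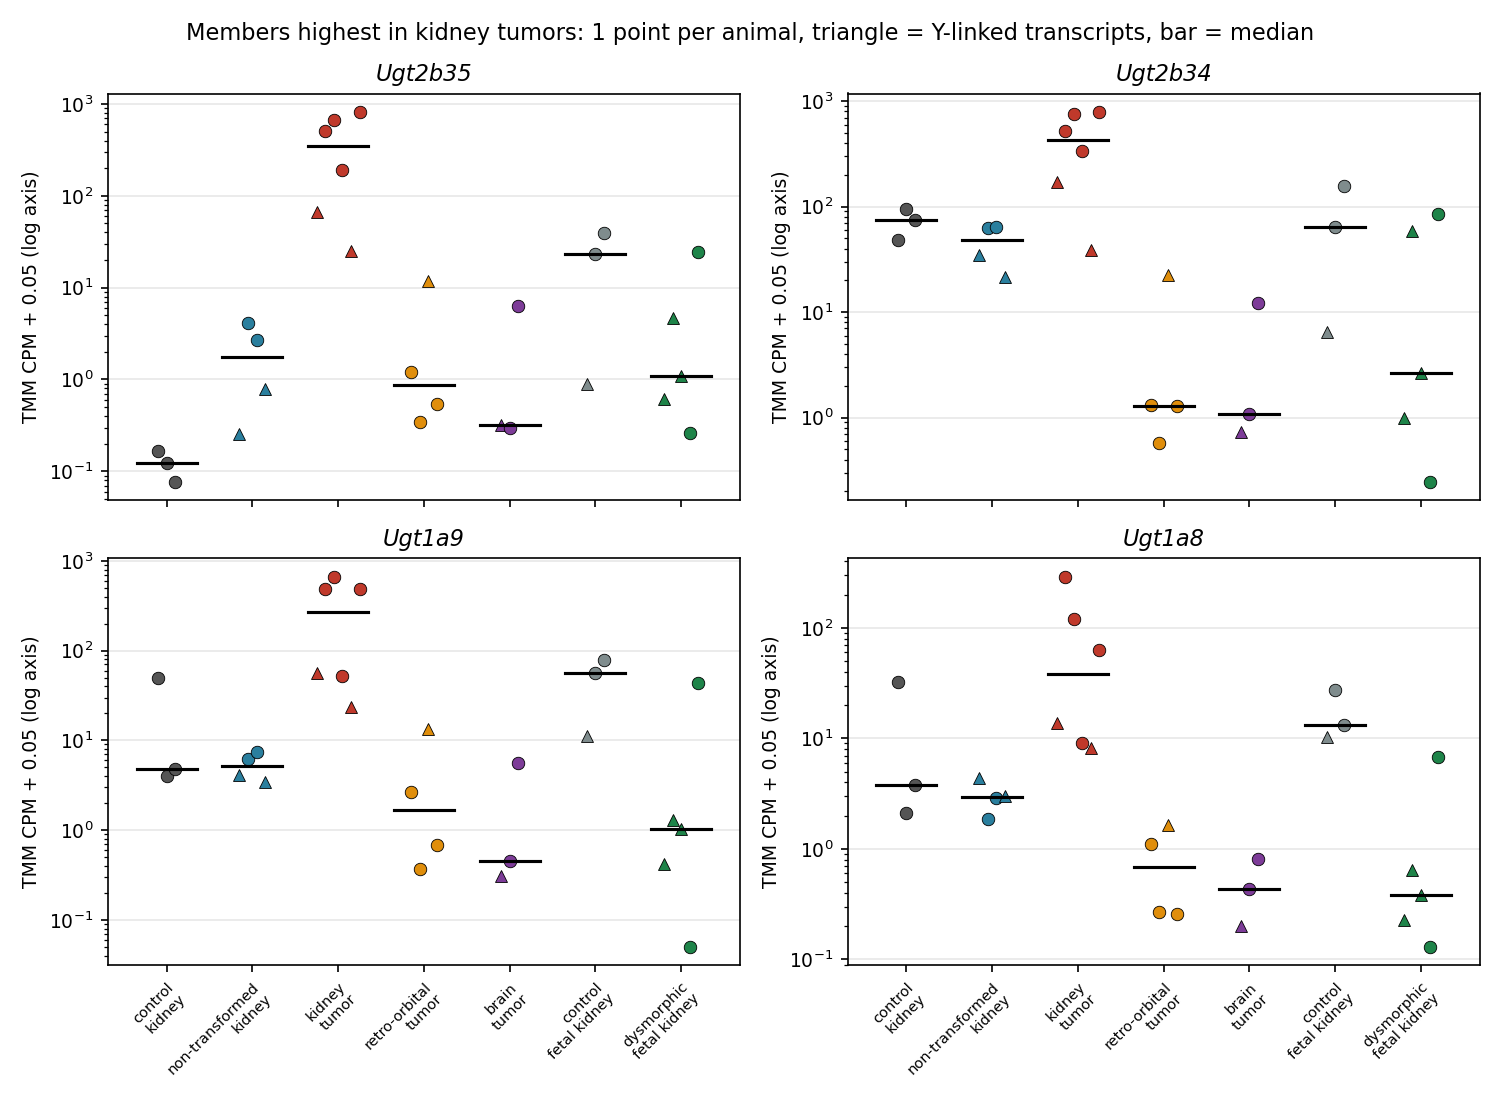
Levels of Ugt2b35, Ugt2b34, Ugt1a9 and Ugt1a8 in the 7 groups (CPM + 0.05, log axis), 1 point per animal, triangles for animals with Y-linked transcripts and a bar at the median. The 6 kidney tumors of Ugt2b35 sit between 25.1 and 818 CPM, above all control and non-transformed kidneys.

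Ugt1a2 showed the opposite pattern. It was at 619, 1045 and 752 CPM in control kidneys and at 487, 633, 710 and 7.71 in non-transformed kidneys, the last in mouse 5. In kidney tumors it was lowest at 23.2 CPM (mouse 3), had a median of 49.2 and was highest at 514 (mouse 4). All 6 tumors were below all 3 control kidneys, with log2 fold changes of -2.49 against control and -1.73 against non-transformed kidneys. The tumor with the most Ugt1a2, that of mouse 4, also had 8889 CPM of proximal tubule markers, against 665 to 739 in mice 2, 3 and 6. The tumor of mouse 5 had 10440 CPM of these markers and 46.5 of Ugt1a2, and the part of such cells in these levels was not tested.

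Ugt1a7c was abundant in all Sglt2-Cre kidneys and kidney tumors. Its levels were 141, 363 and 326 CPM in control kidneys, 673, 216, 300 and 407 in non-transformed kidneys and 486 to 638 in the kidney tumors of mice 1, 2, 3, 4 and 6, with that of mouse 5 lower and within the range of the controls (median of all 6, 545). The groups overlapped, and the log2 fold changes of the tumors were 0.91 and 0.32 against control and non-transformed kidneys. Ugt1a6a, a phenol-conjugating isoform, stayed low everywhere, with 0.272 to 3.22 CPM in kidney tumors and at most 1.25 in any other sample.

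Ugt2b37 and Ugt2b38, the pair of members with the most similar coding sequences and promoters, were highest in the males among the non-transformed kidneys. Ugt2b38 was at 116, 186 and 186 CPM in the female control kidneys, at 205 and 150 in the non-transformed kidneys of female mice 3 and 4, and at 631 and 1027 in those of male mice 1 and 5. Its kidney tumor levels were 69.3 and 411 CPM in male mice 1 and 5, 162 in mouse 4 and 2.02 to 2.52 in mice 2, 3 and 6. The summed proximal tubule markers were at 2805, 10440 and 8889 CPM in the tumors of mice 1, 5 and 4 and at 665 to 739 in those of mice 2, 3 and 6, and their part was not tested. Ugt2b37 was at 3.36, 6.65 and 4.62 CPM in control kidneys, 134, 7.91, 3.06 and 326 in non-transformed kidneys of mice 1, 3, 4 and 5, and 6.21 to 134 (median 8.91) in kidney tumors. For both genes the highest tumor was that of mouse 5. The log2 fold changes of tumors against non-transformed kidneys were -1.92 for Ugt2b37 and -2.26 for Ugt2b38, and against control kidneys 2.72 and -0.59. With females alone, an alternative chosen after seeing the data, that of Ugt2b37 against non-transformed kidneys turned to 0.50.

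**Figure D4:**
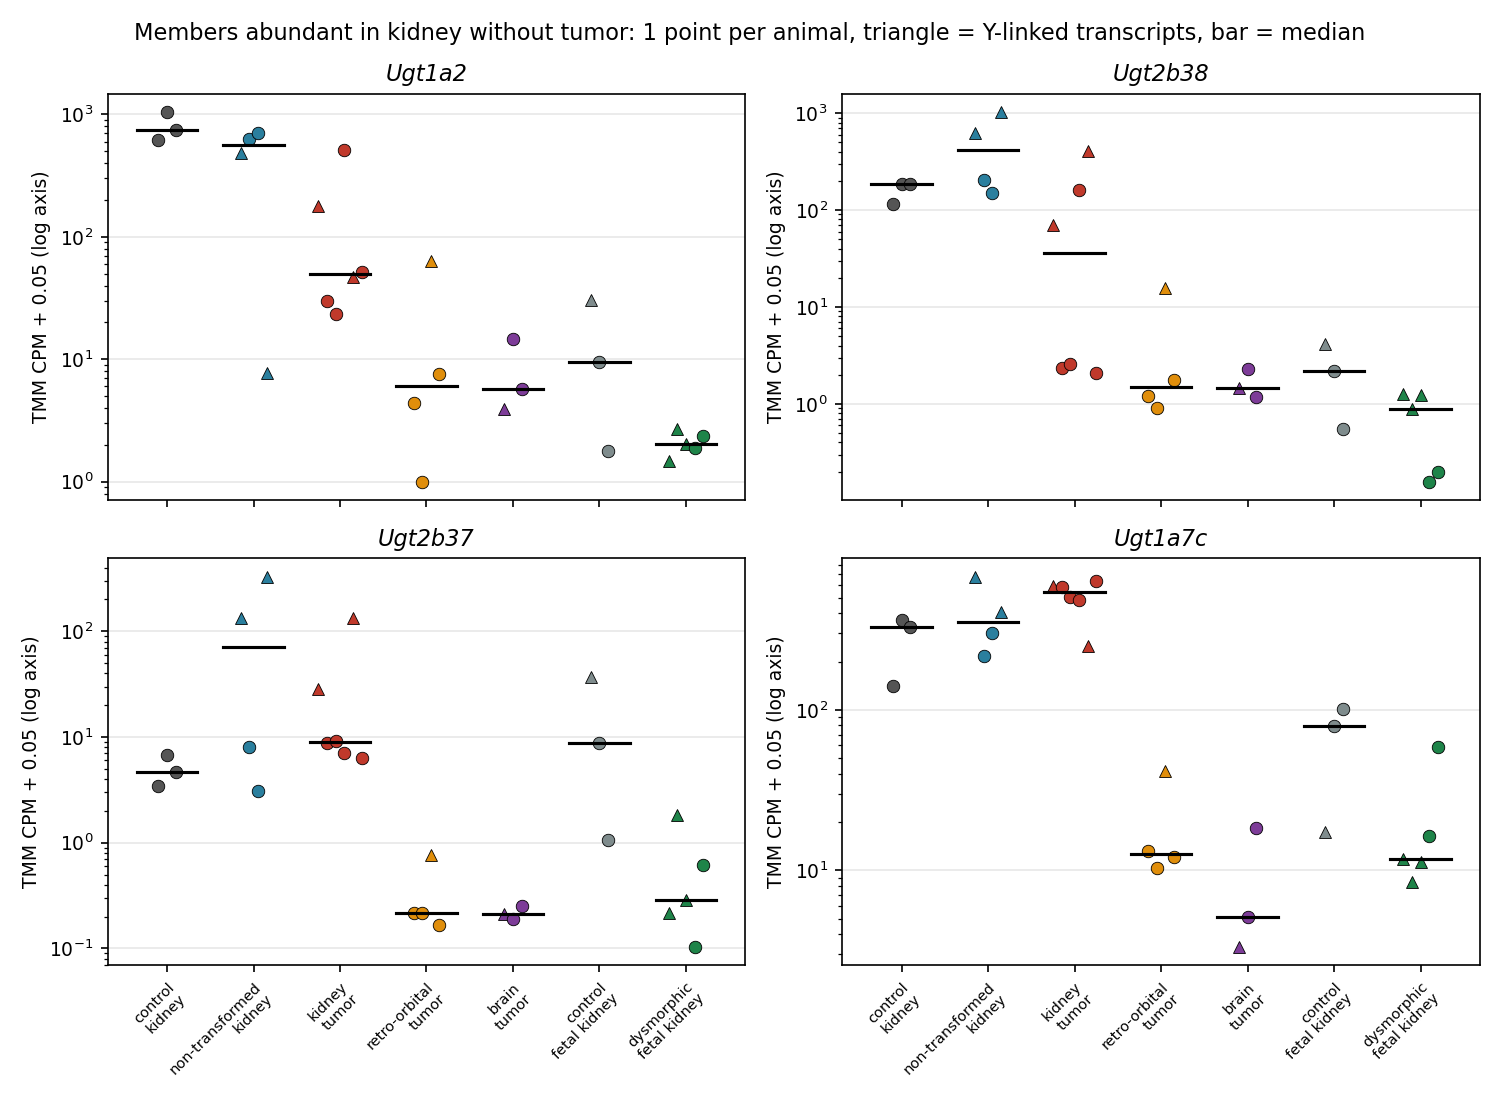
Levels of Ugt1a2, Ugt2b38, Ugt2b37 and Ugt1a7c in the 7 groups (CPM + 0.05, log axis), 1 point per animal, triangles for animals with Y-linked transcripts and a bar at the median. The triangles of the non-transformed kidneys are the 2 highest for Ugt2b37 and Ugt2b38, and Ugt1a2 is lower in all 6 kidney tumors than in the control kidneys.

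By the quasi-likelihood test of edgeR with Benjamini-Hochberg adjustment at 0.05, 1 of the 10 members was called higher in kidney tumors than in control kidneys (Ugt2b35), beside 12.5% of all 23578 genes tested that were called higher and 6.51% lower. Against non-transformed kidneys, 4 of 10 were called higher (Ugt1a8, Ugt1a9, Ugt2b34 and Ugt2b35), beside 12.1% higher and 5.02% lower among all genes. With the mouse as a block, which the shared mice allow, that count was 1, beside 826 of 20575 genes called higher. Nothing was read from these counts, since the members were chosen on them.

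Tumors of a single mouse differed as well. Among the 5 mice with a pair of kidney tumor libraries, Ugt2b35 differed 21.2-fold in mouse 4 (17.3 and 367 CPM) and 7.15-fold in mouse 2 (130 and 928), but only 1.31-fold in mouse 1 and 1.14-fold in mouse 6. Ugt2b38 differed 108-fold in mouse 1 (1.30 and 141 CPM) and 5.16-fold in mouse 4. Ugt1a2 differed by 1.79 to 3.99-fold and Ugt1a7c by 1.01 to 3.38-fold. The library with more Ugt2b35 had fewer proximal tubule marker transcripts in mouse 1 (1041 against 4656 CPM), mouse 4 (6931 against 10730) and mouse 6 (608 against 677), and more in mouse 2 (1086 against 395) and mouse 3 (920.1 against 535). The library with more Ugt2b38 was the one with more of these markers in each of the 5 mice.

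**Figure D5:**
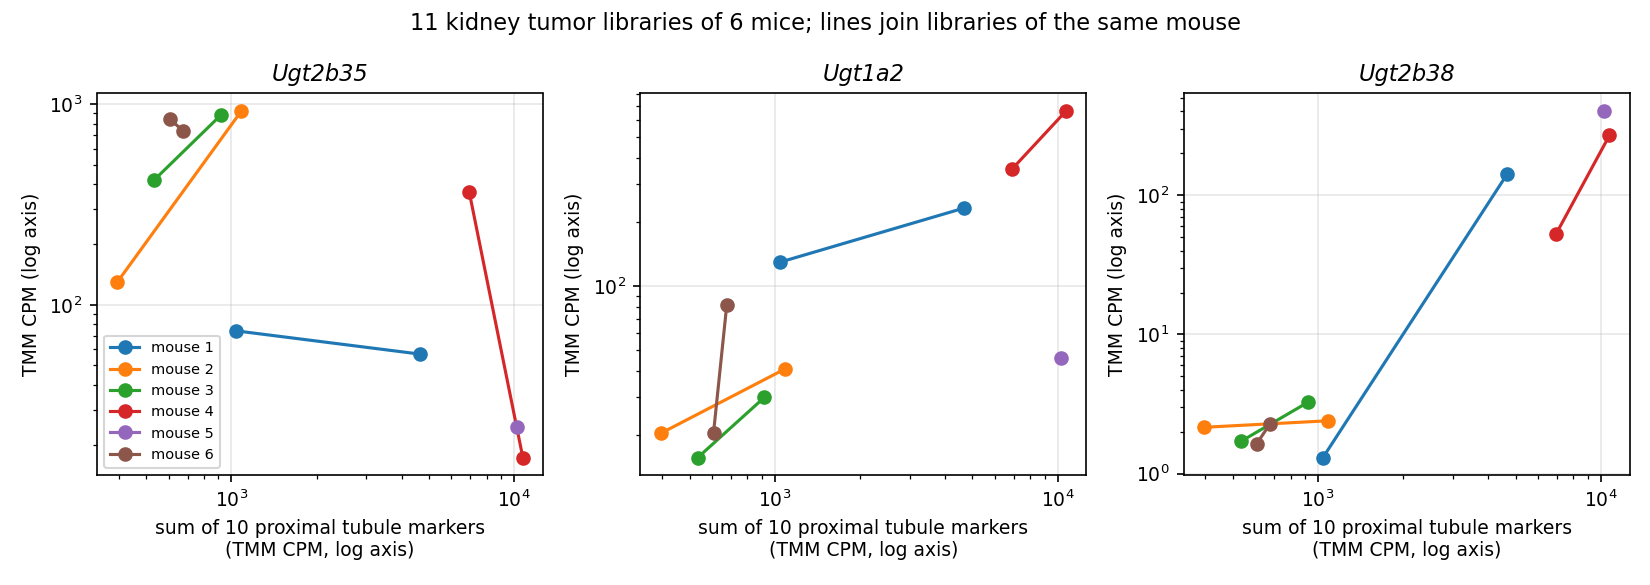
Levels of Ugt2b35, Ugt1a2 and Ugt2b38 in the 11 kidney tumor libraries against the summed level of 10 proximal tubule markers (CPM, log axes), with lines joining libraries of the same mouse. The libraries of mouse 4 lie 21.2-fold apart for Ugt2b35, and those of mouse 1 lie 108-fold apart for Ugt2b38.

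Retro-orbital and brain tumors, which carry the same fusion allele, had lower mean levels of all 10 members than kidney tumors. Ugt2b35 was at 1.17, 0.295, 11.9 and 0.492 CPM in the retro-orbital tumors of mice 2, 3, 5 and 6 and at 0.266, 0.244 and 6.25 in the brain tumors of mice 1, 2 and 4. Ugt1a9 was at 2.62, 0.321, 13.3 and 0.633 CPM in retro-orbital tumors and at 0.256, 0.407 and 5.60 in brain tumors. Every retro-orbital and brain tumor was below every kidney tumor for both genes. Ugt1a7c was at 13.2, 10.2, 41.8 and 12.1 CPM in the same retro-orbital tumors and at 3.28, 5.07 and 18.3 in brain tumors.

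The log2 fold changes of retro-orbital against kidney tumors ran from -2.90 (Ugt1a2) to -6.79 (Ugt1a8 and Ugt2b37). Those of brain against kidney tumors ran from -4.04 (Ugt1a2) to -7.53 (Ugt1a8) among the 9 members with reads in both. Ugt2b36 had 0 counts in each of the 3 brain tumor samples, a result that allows up to 3 counts per sample. In both comparisons, 8 of 10 members were called lower, all but Ugt1a2 and Ugt2b38, beside 9.45% of all genes lower (8.26% higher) for retro-orbital and 4.20% lower (4.54% higher) for brain tumors. With the mouse as a block 3 of 9 members tested were called lower for retro-orbital tumors, beside 1430 of 20462 genes. For brain tumors that fit called no member and 0 of all 21827 genes, so its 0 says nothing of the members. An unadjusted p under 0.05 was found there for 2870 genes. The members were chosen on these contrasts as well.

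Within the retro-orbital tumors, mouse 5 had the highest level of all 10 members, and it also had 1196 CPM of proximal tubule markers, against 95.7 to 173 in the other 3. Ugt1a2, for example, was at 63.4 CPM in mouse 5 and at 4.36, 0.945 and 7.53 in mice 2, 3 and 6, so that mouse 5 lay within the range of the kidney tumors. Among brain tumors, mouse 4 had the most Ugt1a7c, Ugt1a9, Ugt2b34 and Ugt2b35, and mouse 2 the most Ugt1a2 and Ugt2b38. Proximal tubule markers summed to 754 CPM in mouse 4, of which Lrp2 made 696, and to 286 and 371 in mice 1 and 2. Brain markers (8 genes) summed to 122, 1632 and 429 CPM in the brain tumors of mice 1, 2 and 4. The part of either cell type in the members' levels was not tested.

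The brain and retro-orbital tumors were also tested against each other, a contrast that the choice of members did not use, although it used the low levels of both groups, which leaves less room for a difference. None of the 8 members tested was called by edgeR, 0 of them had an unadjusted p under 0.05, and DESeq2 called 0 of the 5 it tested, beside 0.395% of all genes higher and 1.34% lower. The log2 fold changes (brain against retro-orbital) were between -0.46 (Ugt2b34, adjusted p = 0.898) and -1.58 (Ugt2b38, SE 1.11, adjusted p = 0.472), and the median of all genes was 0.04. Without the retro-orbital tumor of mouse 5, that of Ugt2b38 was 0.40. Ugt1a6a and Ugt2b36 were too low to be tested.

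Non-transformed kidneys of fusion mice were next tested against control kidneys, a contrast that the choice of members did not use, although it used both groups. Ugt2b35 was higher in 4 of 4 non-transformed kidneys than in all 3 controls, 1.92 ± 1.78 (SD, n = 4) against 0.0718 ± 0.0441 CPM (n = 3), with a log2 fold change of 4.73 (SE 1.08). It did not pass the test of edgeR (adjusted p = 0.196). DESeq2 gave an adjusted p of 6.04e-06 for this gene. Gpnmb, a gene known to rise with TFE3 fusions, was also higher in these kidneys (111, 462, 379 and 122 CPM in mice 1, 3, 4 and 5, against 1.60 to 2.51 in controls), and its part in the level of Ugt2b35 was not tested.

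Ugt2b37 had a log2 fold change of 4.67 (SE 1.54, adjusted p = 0.309) and Ugt2b38 one of 1.70 (SE 0.657, adjusted p = 0.381) in the same comparison. Both values rest on the male mice, since with females alone they were 0.16 and 0.12, while that of Ugt2b35 was 5.53 (adjusted p = 0.0505). No control mouse was male. Ugt1a8 (-2.04, adjusted p = 0.403) and Ugt1a9 (-1.87, adjusted p = 0.427) had lower means in non-transformed kidneys, but without control mouse 1 their log2 fold changes were 0.099 and 0.28. Ugt1a2 (-0.80, adjusted p = 0.768), Ugt1a7c (0.57, adjusted p = 0.62), Ugt2b34 (-0.64, adjusted p = 0.510) and Ugt1a6a (-0.26, adjusted p = 0.841) did not pass either.

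In all, edgeR called 0 of the 9 members tested between non-transformed and control kidneys, of which 4 had an unadjusted p under 0.05. DESeq2 called 2 of 8 (Ugt2b35 and Ugt2b37), but the share of all genes that it called is not given here. Over all 21019 genes edgeR called 0.00952% higher and 0% lower, and 2462 had an unadjusted p under 0.05.

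In the fetal kidneys, all 10 members had lower mean levels in the dysmorphic group, and none passed the test of edgeR. Ugt1a2 was at 30.6, 9.45 and 1.75 CPM in the 3 control fetuses and at 1.42, 2.64, 1.97, 1.82 and 2.32 in the dysmorphic kidneys, a log2 fold change of -2.82 (SE 0.704, adjusted p = 0.0758). Ugt2b37 was at 36.7, 8.74 and 1.02 CPM in controls and at 0.167, 1.77, 0.235, 0.0533 and 0.569 in dysmorphic kidneys (-4.82, SE 1.30, adjusted p = 0.0901). For both genes control 3 lay within the dysmorphic range. Ugt1a8 was at 10.2, 27.2 and 13.1 CPM in controls and at 0.177, 0.596, 0.330, 0.0799 and 6.77 in dysmorphic kidneys (-3.46, SE 1.33, adjusted p = 0.196).

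The other fetal differences did not pass either. Ugt1a9 was at 11.3, 56.1 and 77.8 CPM in controls and at 0.365, 1.23, 0.979, 0 and 43.1 in dysmorphic kidneys, where a count of 0 allows up to 3 counts (-2.46, SE 1.85, adjusted p = 0.503). Ugt2b35 was at 0.838, 23.3 and 39.8 CPM in controls and at 0.563, 4.59, 1.04, 0.213 and 24.6 in dysmorphic kidneys (-1.83, SE 1.52, adjusted p = 0.548). Controls 2 and 3 and dysmorphic fetus 5 were the 3 highest fetal samples for Ugt2b34, Ugt2b35, Ugt2b36, Ugt1a7c and Ugt1a9. Without dysmorphic fetus 5, edgeR called 3 members lower (Ugt1a7c, Ugt1a8 and Ugt1a9), and without dysmorphic fetus 2 it called Ugt2b37. The share of all genes called in those fits is not given here, so nothing particular to the members is read from them.

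Apoa1, an apolipoprotein gene of liver and gut, was at 221, 474 and 333 CPM in those 3 fetuses and at 0.313 to 8.40 in the other 5. The sum of 8 hepatocyte markers was 8.25 to 515 CPM in controls and 12.3 to 358 in dysmorphic kidneys, and its genes did not move together. In the 3 fetuses with high Apoa1 nearly all of the sum was Apoa1, with Alb at 7.64, 12.5 and 6.71 CPM, whereas Alb was highest in dysmorphic fetuses 2, 3 and 4 (204, 195 and 57.9), which had low Apoa1. The sum of 7 skeletal muscle markers was 1146 to 1350 CPM in controls and 2684 to 6287 in dysmorphic kidneys, and that of the proximal tubule markers 1163 to 1385 and 27.1 to 869. The proximal tubule genes did not move together either, with Lrp2 at 895, 374 and 68.6 CPM in controls 1, 2 and 3. Only 5 of the 10 reached 1 CPM in control 3. In dysmorphic fetus 5, which had the sum of 869, 4 did and Lrp2 was at 61.5. In fetuses that sum is therefore an uncertain measure of proximal tubule. The part of these cells in the members' levels was not tested. With only fetuses under 100 CPM of Apoa1, an alternative chosen after seeing the data, 1 control fetus was left against 4 dysmorphic ones, and the log2 fold changes were -3.99 for Ugt1a2, -5.12 for Ugt1a8, 1.27 for Ugt2b34, 0.91 for Ugt2b35 and 0.73 for Ugt2b36.

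Among the 10 members, 3 had an unadjusted p under 0.05 in the fetal comparison (Ugt1a2, Ugt1a8 and Ugt2b37), and DESeq2 called 2, Ugt1a2 (adjusted p = 9.96e-04) and Ugt2b37 (2.82e-04). The share of all genes that DESeq2 called there is not given here. Over all 22690 genes, edgeR called 2.40% higher and 0.269% lower in dysmorphic kidneys. That count of 605 fell to 0 without dysmorphic fetus 1, 3 or 4 or without any 1 of the controls.

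Between the kidneys of the Sglt2-Cre controls and of the control fetuses, 5 of 10 members were called, 3 higher and 2 lower in the Sglt2-Cre kidneys, beside 23.9% of all genes higher and 25.1% lower. Age, Cre line and sequencing table cannot be told apart in this comparison. Ugt1a2 was higher by 5.75 on the log2 scale (SE 1.06, adjusted p = 0.00514), Ugt2b38 by 6.08 (SE 0.814, adjusted p = 0.00143) and Ugt1a7c by 1.99 (SE 0.657, adjusted p = 0.0434). Ugt2b35 (-8.27, SE 1.53, adjusted p = 0.00517) and Ugt2b36 (-7.24, SE 1.71, adjusted p = 0.0132) were higher in the fetal controls, where Ugt2b36 was at 0.166, 3.13 and 20.5 CPM.

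The choice of members used the control kidneys, 1 arm of this comparison, and the share called was near that of all genes. Control fetuses 2 and 3, with 23.3 and 39.8 CPM of Ugt2b35, were those with high Apoa1. The remaining 5 members (Ugt1a6a, Ugt1a8, Ugt1a9, Ugt2b34 and Ugt2b37) were not called. Without control mouse 1, which had the high Ugt1a8 and Ugt1a9, those 2 genes and Ugt1a6a were called as well, 7 in all, since Ugt2b36 was then lost. Without control mouse 2 or 3 the count was 3, with Ugt1a7c and Ugt2b36 lost.

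The other genes of the glucuronidation pathway were tested in every comparison, with the list of 45 genes drawn up with earlier results known. Glucuronic acid reaches UGTs through UDP-glucose, which UGP2 makes, and UDP-glucuronic acid, which UGDH makes from it. SLC35D1 carries the latter into the endoplasmic reticulum, and UXS1 turns it into UDP-xylose. Of these 4 genes, Ugp2 alone rose in kidney tumors against control kidneys, to 760 ± 205 CPM (n = 6) from 269 ± 39.9 (n = 3), a log2 fold change of 1.52 (SE 0.264, adjusted p = 0.00640) called without each mouse in turn. Against non-transformed kidneys Ugp2 rose by 1.28 (adjusted p = 0.00505) and Slc35d1 fell by 1.33 (adjusted p = 0.0140), with adjusted p = 0.106 and 0.101 when the mouse was a block.

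Ugdh fell in tumors outside the kidney. Its level was 139 ± 36.3 CPM among the kidney tumors and 48.8 ± 12.2 among the retro-orbital ones (log2 fold change -1.54, adjusted p = 0.00369) and 42.6 ± 9.19 among those of the brain (-1.62, adjusted p = 0.0150). With the mouse as a block the adjusted p was 0.0158 and 0.267. Uxs1 differed between these sites, with 217 ± 69.3 CPM in brain and 55.3 ± 9.89 in retro-orbital tumors, a log2 fold change of 2.0 (SE 0.244, adjusted p = 0.0212) that was not called without the retro-orbital tumor of mouse 2, 3 or 6. Gusb, the lysosomal enzyme that removes glucuronic acid again, rose in kidney tumors to 52.3 ± 16.8 CPM from 25.6 ± 0.713 in control kidneys (1.06, adjusted p = 0.0339, called in 3 of the 9 leave-one-out fits).

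The Ugt genes outside the members are not separate from them in reads, since Ugt1a1, Ugt1a5, Ugt1a6b and Ugt1a10 have only 39.4% to 41.9% of their exon bases to themselves and Ugt2b5 shares 41.7% of its 50-base windows with Ugt2b36, Ugt2b37 and Ugt2b38. The part of such reads in the calls was not tested. Of the 12, 10 could be tested in kidney tumors against control kidneys, and 1 of them was called, higher, beside 12.5% of all genes. That was Ugt2b5, at 81.0 ± 77.2 against 3.36 ± 1.18 CPM (log2 fold change 4.61, adjusted p = 0.0243), a call lost without any 1 control mouse. The median log2 fold change of the 10 was 0.38, and that of all genes 0.05. In retro-orbital against kidney tumors 7 of 10 fell, with a median of -4.65, of which 3 (Ugt1a6b, Ugt1a10 and Ugt2a3) stayed called with the mouse as a block, and in brain against kidney tumors 5 of 10 fell, with a median of -5.80, beside 9.45% and 4.20% of all genes lower in these comparisons. Ugt1a10, for example, was at 86.2 ± 57.4 CPM in kidney tumors, 1.10 ± 1.14 in retro-orbital tumors (adjusted p = 0.00273) and 0.793 ± 0.442 in brain tumors (adjusted p = 0.00747). With the mouse as a block the adjusted p was 0.0269 and 0.267, and for brain tumors the block left no gene of any kind called.

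Among transcription factors that are known to act on UGT genes, Ppara (-1.87, adjusted p = 0.00302) and Nr1i3 (-1.90, adjusted p = 0.0390) were lower in kidney tumors than in control kidneys, and Nr1i3 was called in 3 of the 9 leave-one-out fits. Against non-transformed kidneys Ppara fell as well (-1.30, adjusted p = 0.0106, or 0.0468 with the mouse as a block), as did Nr1i3 (-1.72, adjusted p = 0.0434, or 0.109 with the block), a call held in 2 of 10 leave-one-out fits. Nfe2l2, the antioxidant response factor, rose to 585 ± 252 from 223 ± 9.87 CPM in the same comparison (1.35, adjusted p = 0.0129, or 0.0868 with the block). Ppara, a fatty acid sensor, was lower again in tumors outside the kidney than in kidney tumors, by log2 fold changes of -1.49 in the retro-orbital (adjusted p = 0.00778) and -1.59 in the brain tumors (adjusted p = 0.0356, or 0.333 with the block). None of these regulators or other pathway genes was called between non-transformed and control kidneys or between dysmorphic and control fetal kidneys.

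Across the 20 samples of the Sglt2-Cre mice, genes were ranked by the correlation of their log2(CPM + 0.5) with each of 9 members (Ugt2b36 was under the minimum level for this ranking), as a description of likeness only, since samples share mice and groups. The genes named are the most alike outside the Ugt family. Ugt2b35 was most like Gdf15 (Pearson r = 0.936, n = 20), a stress-induced cytokine, and Psap (0.936), the precursor of lysosomal saposins. Ugt2b34 was most like Tgm2 and Blnk (both 0.968), and Ugt1a9 like Stra6l (0.933) and Blnk (0.926). Ugt1a7c was most like Hoxa10 (0.973) and Hoxa3 (0.969), Ugt1a8 like Hoxa11 (0.919) and Gm15374 (0.916), and Ugt1a6a like Angptl8 (0.958).

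Outside the Ugt family, Ugt2b38 was most like Slc22a28 (r = 0.994, n = 20) and Slc22a22 (0.992), organic anion transporter genes, and Ugt2b37 like Acsm3 (0.937) and Syna (0.924). Ugt1a2 was most like Gm10639 (0.943). Between members, Ugt1a8 and Ugt1a9 had an r of 0.954 and Ugt2b35 and Ugt2b38 one of -0.19. The Ugt1a values share exons, and the part of shared reads in this likeness was not tested.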

How the data were processed

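Gene counts of 36 libraries were analysed as the authors deposited them, in a table for the Sglt2-Cre mice and a table for the Pax8-Cre fetuses. The deposited values are raw counts per Ensembl gene, not normalized, and the submitters' processing notes name FastQC, MultiQC, Bowtie2 and STAR 2.5.2a with GRCm38. The annotation, the counter and the treatment of reads in shared exons are not given in the sources used here. Of 53379 gene IDs, 53274 were matched to a symbol. Among counts of low genes, 79.0% to 84.3% were even numbers in each library, so mates of a pair may have been counted apart, and an alternative used halved counts.

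Libraries of the same tissue and animal were summed, which gave 28 samples. Genes were filtered with filterByExpr and tested with edgeR 4.0.16 (R 4.3.3, limma 3.58.1) by the quasi-likelihood F test on TMM-scaled counts of the groups compared, with Benjamini-Hochberg adjustment over all genes tested and a threshold of 0.05. The SE of a log2 fold change was obtained as its size over the root of its F statistic. The alternatives were DESeq2 1.42.0, other scaling factors, no filter, all groups in 1 fit, every library as a sample, halved counts, sex as a covariate, the animal as a block and each animal left out. Animals of 1 group were separate mice or fetuses. The scripts were tested on simulated data.

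The 10 members and all gene lists were chosen with earlier results of these data known. Named outside the members were the pathway genes past the threshold and the 2 genes most like each member, some of which are not reported here. Tumors and non-transformed kidneys with the same mouse number come from the same animal, so the numbers pair them, while control mice and fetuses are numbered apart. The correlation of their deviations from the group means was 0.253 to 0.324 for retro-orbital and kidney tumors, -0.047 to 0.162 for non-transformed kidneys and kidney tumors, and -0.077 to -0.058 for brain and kidney tumors. Sex was read from Y-linked transcripts (minimum 50 CPM). At these depths a count of 0 allows up to 3 counts, and such limits cover counting error only.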

Additional observations from a re-analysis of the deposited data

Results flagged for a closer look

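For 15 of 40 combinations of a member and a group of 4 to 6 animals, 1 animal lay far from the others by Dixon's criterion. Chance gives about 1 in 20 for normally distributed values. The criterion was applied to CPM without logarithms, and every flagged value was the highest of its group, so that rate may be too low here. The members of a combination share animals, and therefore these 15 are not independent. The retro-orbital tumor of mouse 5 accounted for 7, with Ugt1a2 at 63.4 CPM (next highest 7.53), Ugt1a6a at 0.218 (0.0527), Ugt1a7c at 41.8 (13.2), Ugt2b34 at 22.2 (1.27), Ugt2b35 at 11.9 (1.17), Ugt2b37 at 0.71 (0.169) and Ugt2b38 at 15.7 (1.73). That tumor had 1196 CPM of proximal tubule markers against 95.7 to 173 in the other 3, and the part of such cells in these values was not tested.

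Dysmorphic fetus 5 accounted for 5, with Ugt1a7c at 58.6 CPM (next highest 16.2), Ugt1a8 at 6.77 (0.596), Ugt1a9 at 43.1 (1.23), Ugt2b35 at 24.6 (4.59) and Ugt2b36 at 11.6 (0.377). Its Apoa1 level was 333 CPM against 0.313 to 8.40 in the other dysmorphic kidneys, but its Alb level was the lowest of them (6.71 CPM, against 7.54 to 204), and their part was not tested. The other 3 were Ugt1a2 in the kidney tumor of mouse 4 (514 CPM, next highest 180), Ugt2b37 in the kidney tumor of male mouse 5 (134 CPM, next highest 28.1) and Ugt2b36 in the non-transformed kidney of mouse 5 (1.93 CPM, next highest 0.150).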

How the results depend on the processing

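Of the log2 fold changes of the members under all alternatives, 1094 kept their direction and side of the threshold, 46 passed it in addition, 81 lost it and 26 turned, and those of pathway genes called kept theirs in 1025 cases, lost the call in 254 and turned in none. The number of members called in kidney tumors against control kidneys was 1, but 6 with DESeq2, 4 with sex as a covariate, 8 with every library as a sample, 5 with females only and 1 to 4 without each animal in turn. The fit of every library takes libraries of the same mouse as separate animals, so its count is inflated by that. Against non-transformed kidneys it was 4, but 1 with the replicate block and 2 to 5 without each animal. The count of 8 fell to 3 with the replicate block and ran from 4 to 9 without each animal for retro-orbital against kidney tumors, and it fell to 0 (as did the count over all genes) and ran from 2 to 8 for brain against kidney tumors. Non-transformed against control kidneys gave 2 with DESeq2 (0 with edgeR), and dysmorphic against control fetal kidneys gave 2 with DESeq2, 1 (Ugt2b38, adjusted p = 0.0487) with a replicate block on the title prefix that fetuses share, which does not name a litter, and 0 to 3 without each fetus. Control against control fetal kidneys gave 3 to 7. For most of these alternatives the share of all genes called is not given here, so nothing about the members is read from the counts. The block changed no other count of members. No paired analysis was possible for brain against retro-orbital tumors because they share 1 mouse.

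Directions turned for Ugt2b36 in kidney tumors against non-transformed kidneys (-0.38, but 0.80 with the replicate block, 0.12 with sex, 4.18 with females only, and -0.82 to 2.51 without each animal), for Ugt2b37 there (0.50 with females only) and for Ugt1a7c in non-transformed against control kidneys (-0.10 with sex, -0.11 with females only). Without each animal in turn, the log2 fold changes of non-transformed against control kidneys ran from -0.58 to 0.0029 for Ugt1a6a, -2.54 to 0.099 for Ugt1a8 and -2.35 to 0.28 for Ugt1a9. Those of brain against retro-orbital tumors ran from -2.0 to 0.96 for Ugt1a2, -3.62 to 0.81 for Ugt1a9, -2.83 to 2.20 for Ugt2b34, -3.72 to 1.79 for Ugt2b35, -1.05 to 0.20 for Ugt2b37 and -1.94 to 0.40 for Ugt2b38, each positive without the retro-orbital tumor of mouse 5. In fetal kidneys Ugt2b36 ran from -4.86 to 0.57, and with fetuses under 100 CPM of Apoa1 (1 control left against 4 dysmorphic) the values were 1.27 for Ugt2b34, 0.91 for Ugt2b35 and 0.73 for Ugt2b36. In control against control fetal kidneys Ugt1a8 ran from -2.62 to 0.063 and Ugt2b34 from -0.67 to 0.96. The causes were not tested. Upper-quartile scaling moved the median of all genes in that comparison to -0.26 and left 4 members called, 2 in each direction.

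The females-only and Apoa1 alternatives were chosen after seeing the data. With 3 to 6 animals per group, a member that was not called is not shown to be unchanged.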

Other observations

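Sulfation, the other main route of conjugation, was followed with 8 genes. None rose in any tumor comparison. Papss1, which makes the sulfate donor, fell in kidney tumors to 54.4 ± 18.0 CPM (n = 6) from 103 ± 12.2 in control kidneys (n = 3; log2 fold change -0.91, edgeR adjusted p = 0.0336, called in 2 of the 9 leave-one-out fits). Its relative Papss2 fell from 138 ± 119 CPM in the kidney to 21.3 ± 15.5 in tumors of the retro-orbital site (-2.71, adjusted p = 0.0382) and 8.50 ± 5.71 in brain tumors (-3.94, adjusted p = 0.0426, or 0.337 with the mouse as a block), calls that held in 4 of the 10 and 2 of the 9 leave-one-out fits. Between control kidneys and control fetal kidneys, 4 of the 7 sulfation genes tested were higher in the former, beside 23.9% of all genes higher and 25.1% lower, among them Papss2 (555 ± 36.5 against 30.2 ± 4.12 CPM, adjusted p = 2.63e-05) and the sulfotransferase Sult1c2 (80.6 ± 10.3 against 1.78 ± 1.35 CPM, adjusted p = 0.00178).

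Of 10 transporters known to carry conjugates or organic anions, Abcc2 rose in kidney tumors against control kidneys, to 1576 ± 537 from 690 ± 251 CPM (1.22, adjusted p = 0.0497), and Abcc3 (-1.87, adjusted p = 0.0229) and Abcg2 (-0.76, adjusted p = 0.0207) fell. The call of Abcc2 held in 2 of the 9 leave-one-out fits, and those of Abcc3 and Abcg2 in 6, each being lost without any 1 control mouse. In control against control fetal kidneys 5 of 10 were higher and none lower, beside the same 23.9% and 25.1% of all genes. Slc22a7, an organic anion transporter, was at 106 ± 28.3 against 0.0636 ± 0.0327 CPM there (10.61, adjusted p = 3.69e-05), a comparison in which age, Cre line and sequencing table cannot be told apart.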
